A study of Rattus norvegicus with 12 samples.

Results

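Some genes of the rat trigeminal ganglion had either a low or a high RNA level in each library, with none in between, and both levels occurred among libraries of the same hormone group. These 2-level genes were chosen from the measured values themselves. Each gene's 12 values of log2(FPKM + 1) were sorted, where FPKM is the number of fragments divided by gene length and by library depth, and the widest gap that left at least 3 libraries on each side was taken. A gene entered the set when that gap was at least 1, was wider than the range of values on either side of it, and separated libraries inside at least 1 treatment group. To be considered, a gene needed 3 libraries at 1 FPKM or more and a mean FPKM of at least 2, which left 12464 of the 32545 genes listed. The rule took 43 of these 12464 genes, or 0.345%. Because the rule used all 12 libraries, the gap and the levels on either side of it are given as descriptions and carry no test.

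Tissue was the right trigeminal ganglion of female rats of the Sprague Dawley stock, each implanted with a capsule for 1 week, and 3 libraries were made for each of 4 groups. Vehicle capsules held 100% cholesterol, and estradiol (E2), an estrogen made by the ovary, was given at 5% (a level that the labels equate with diestrus), at 20% (equated with proestrus) or at 40% (called therapeutic). By its title, the series asks how the dose and timing of estrogen bear on serotonin's effects on these sensory neurons. The labels do not tie each library to an animal of its own, and they give neither an age nor the state of the ovaries. If libraries do not come from separate animals, p-values measure only the spread between these samples.

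The trigeminal ganglion contains sensory neurons that serve the face and the meninges, together with satellite glia, Schwann cells, vessels and immune cells. Sprague Dawley is an outbred stock, so its animals are not genetically identical. In outbred animals a variant near a gene, or a difference in the number of its copies, is known to set that gene's RNA level in steps, with each animal's step given by the alleles it inherited. A gene's RNA can also be switched by the cell types caught in a dissection or by the state of the animal. This is background, and no genotype was measured here.

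The files identify genes by Ensembl number and do not pair the numbers with names, and none matched the reference table, so roles, neighbours and cell type markers of the 2-level genes were not analysed here. Genes are therefore called by identifier, or by their rank when ordered from the widest gap. Whole fragments were recovered from the FPKM values (13281981 to 16978830 per library, a 1.28-fold range), so that the reads behind each level are known. Vehicle replicate 1 was the deepest library and had the fewest genes above 0, 17843, where the other 11 had 18112 to 18836. In bulk tissue, fewer cells of a type and less RNA per cell cannot be told apart.

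**Figure D1:**
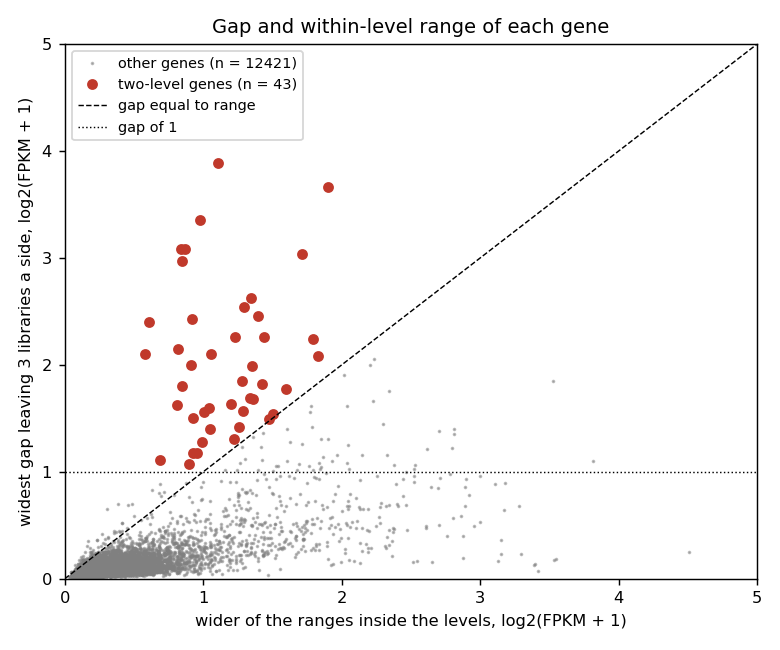
Widest gap leaving 3 libraries on each side (vertical axis) against the wider of the ranges inside the levels (horizontal axis), both in units of log2(FPKM + 1), for each of the 12464 genes. The 43 red points are the 2-level genes, above the dashed line of equality and above the dotted line at a gap of 1, and the grey points are all other genes.

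Of the 12464 genes, 97 had a gap of at least 1, and 43 of these had a gap wider than the range on both sides. The remaining 54 had a step of that size but were too scattered around it. None of the 43 was then lost to the condition on treatment groups. A loss needs all 3 libraries of each group to stand at the same level, which few divisions of 12 libraries do. The absence of losses is therefore not read as a result. The gaps ran from 1.07 to 3.89 with a median of 1.85, and 6 genes had a gap of at least 3. The rule itself makes the range inside each level narrower than the gap. The median range was 0.58 at the lower level and 1.04 at the upper level, and the upper range was the wider in 31 of 43 genes. The scale of log2(FPKM + 1) narrows the range of low values, and 5 genes read 0 in every lower library. Near the threshold the change was gradual. The 2 members with the narrowest gaps stood at 1.108 and 1.072, and the 2 genes just outside, which met every other condition, stood at 0.892 and 0.886. A further 2 genes had gaps of 1.322 and 1.231 and fell outside because a range of 1.358 and of 1.280 was wider. In all, 14 genes met every other condition with a gap between 0.5 and 1.

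**Figure D2:**
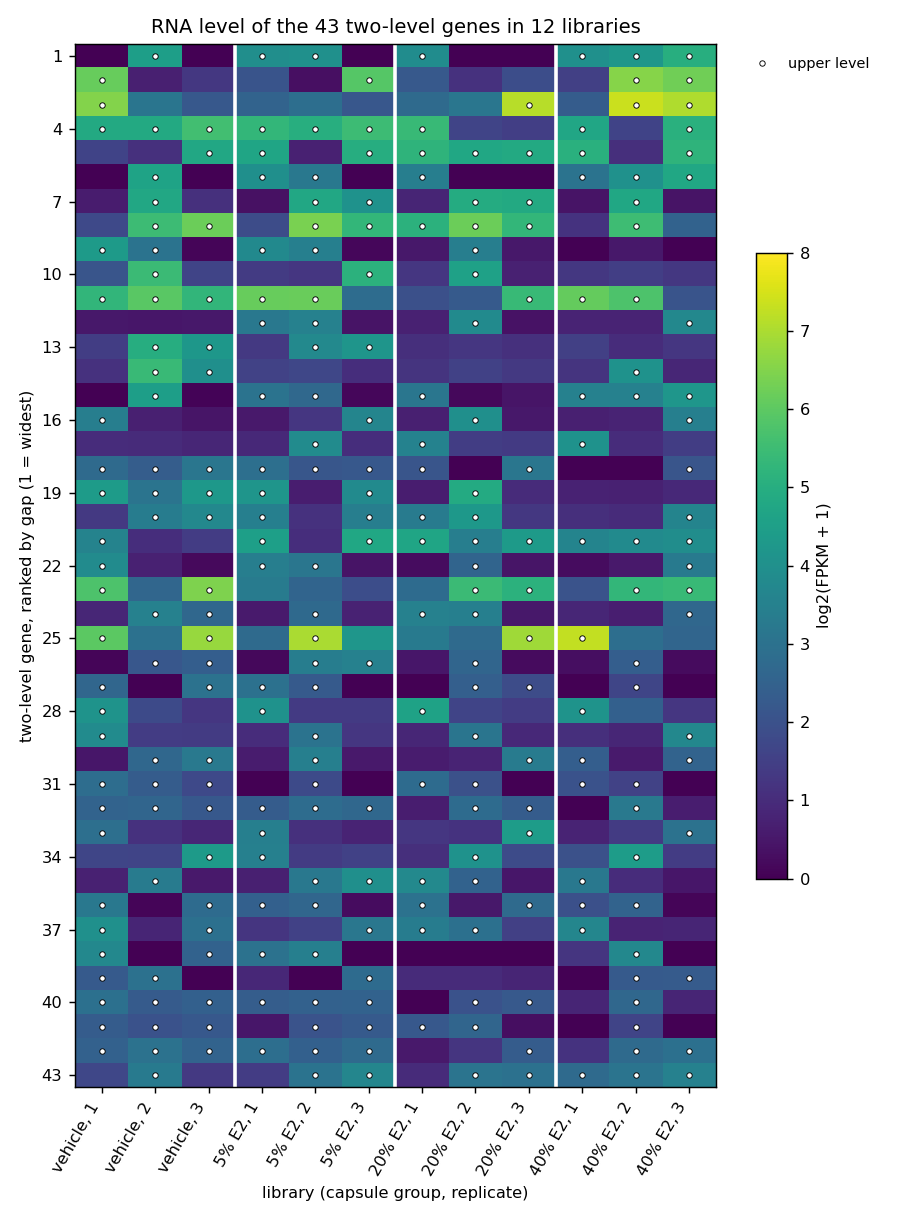
Level of each of the 43 genes (rows, ordered from the widest gap) in each of the 12 libraries (columns, by capsule group), coloured by log2(FPKM + 1), with a white dot where the library is at the upper level. Dots and blanks are mixed inside every capsule group, and few rows share a pattern.

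The libraries were divided in many ways. The upper level held fewer than 6 libraries in 17 genes, exactly 6 in 8 genes and more than 6 in 18 genes. Over the 43 genes, 40 different divisions of the 12 libraries occurred, and 38 genes had a division that no other member shared. Both levels were present inside all 4 treatment groups in 16 genes, inside 3 groups in 18 and inside 2 in 9. No gene had both levels in only 1 group. With 3 libraries per group, that cannot occur where 3, 6 or 9 libraries are at the upper level. Those numbers were found in 3, 8 and 6 genes, so the absence is not read as a result.

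The next 4 genes were chosen as those with the widest gaps, 2 with the upper level in more libraries than the lower and 2 in fewer. ENSRNOG00000047706 had the widest gap, 3.89. It was listed at 0 in vehicle replicates 1 and 3, at 21.1 FPKM in vehicle replicate 2, at 14.6, 15.1 and 0 in replicates 1 to 3 at 5% E2, at 13.8, 0 and 0 at 20% E2, and at 15.3, 17.7 and 30.9 at 40% E2. The 5 libraries at the lower level held 0 fragments of it and the 7 at the upper level 204 to 455 each, on a gene model of 1089 bases. Set against a floor of 3 fragments per library, the upper level was at least 107-fold higher.

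ENSRNOG00000048985 (gap rank 4) was at its upper level in most libraries. It read 27.9, 27.9 and 46.4 FPKM in vehicle, 38.3, 31.8 and 43.7 at 5% E2, 41.2, 2.11 and 1.79 at 20% E2, and 25.5, 2.05 and 32.8 at 40% E2. Only 20% E2 replicates 2 and 3 and 40% E2 replicate 2 were low, with 24 to 26 fragments each against 290 to 665 in the other 9. The ratio of the level means was 17.7.

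ENSRNOG00000019823 (gap rank 2) was high in 4 libraries. Its values were 69.9, 0.621 and 1.48 FPKM in vehicle, 3.27, 0.257 and 58.5 at 5% E2, 3.69, 1.20 and 2.68 at 20% E2, and 1.86, 93.3 and 75.3 at 40% E2. The upper libraries held 219 to 309 fragments and the lower ones 1 to 12, on a short model of 240 bases. The means of 74.3 ± 14.5 FPKM (SD, n = 4 libraries) and 1.88 ± 1.24 (SD, n = 8) had a ratio of 39.4.

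ENSRNOG00000037607 (gap rank 3) was also high in 4 libraries, of which 3 were the same as for ENSRNOG00000019823. It read 89.6, 7.71 and 3.58 FPKM in vehicle, 4.88, 6.38 and 3.50 at 5% E2, 5.73, 7.84 and 139 at 20% E2, and 4.07, 164 and 132 at 40% E2. Here the lower level was not empty. It averaged 5.46 ± 1.74 FPKM (SD, n = 8 libraries), with 19 to 38 fragments per library, against 131 ± 30.9 (SD, n = 4), a ratio of 24.0.

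The genes with gap ranks 5 and 7 showed the same kind of step with other libraries on each side. Gap rank 5 read 2.05, 1.16 and 27.0 FPKM in vehicle, 24.9, 0.672 and 30.6 at 5% E2, 35.6, 26.3 and 28.2 at 20% E2, and 33.1, 1.13 and 35.6 at 40% E2, so that only the 20% E2 libraries all stood at 1 level. Gap rank 7 read 0.518, 27.0 and 1.16 FPKM in vehicle, 0.294, 27.0 and 15.9 at 5% E2, 0.777, 29.4 and 28.3 at 20% E2, and 0.336, 26.0 and 0.334 at 40% E2. The ratio of the level means was 24.1 for the first and 45.0 for the second, with at most 23 and 13 fragments in a lower library.

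**Figure D3:**
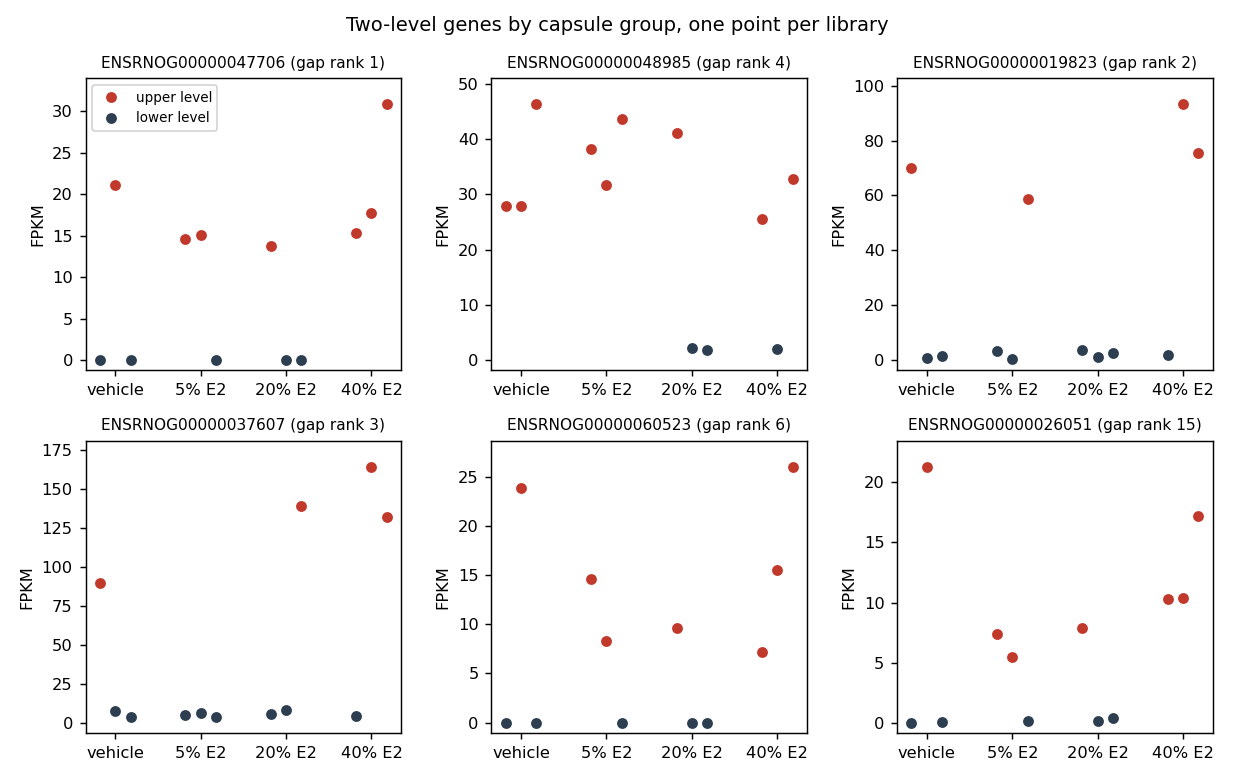
FPKM (vertical axes) of 6 genes in each of the 12 libraries, grouped by capsule, with the upper level in red and the lower level in dark blue. Each gene has red and dark points in at least 2 capsule groups, and the 3 genes with gap ranks 1, 6 and 15 have them in the same libraries.

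A group of 3 genes divided the libraries in the same way. Besides ENSRNOG00000047706 these were ENSRNOG00000060523 (gap rank 6) and ENSRNOG00000026051 (gap rank 15), which are named because their shared division was seen in the values. ENSRNOG00000060523 was listed at 0 in the same 5 libraries and read 23.8 FPKM in vehicle replicate 2, 14.6 and 8.26 in replicates 1 and 2 at 5% E2, 9.64 in 20% E2 replicate 1, and 7.23, 15.5 and 26.0 at 40% E2. It had 58 to 210 fragments at the upper level and none at the lower, so the ratio was at least 48.1 against the same floor. ENSRNOG00000026051 read 21.3 FPKM in vehicle replicate 2, 7.34 and 5.46 in replicates 1 and 2 at 5% E2, 7.90 in 20% E2 replicate 1, and 10.3, 10.4 and 17.2 at 40% E2. Its lower libraries held 0 to 7 fragments, 12 in all, with FPKM between 0 and 0.362. The ratio from pooled fragments was 85.2, with an exact 95% interval of 48.6 to 165 that covers counting error only. The levels were assigned from these same values, so the interval is no test of the step. Against the floor used for the other genes of this group the ratio was 69.2.

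The 3 genes also varied together inside the upper level. Vehicle replicate 2 and 40% E2 replicate 3 held the 2 highest values of each gene. Over the 7 upper libraries the Pearson correlation of log2(FPKM + 1) was 0.82, 0.79 and 0.78 for the 3 pairs, which share the same 7 libraries. Over all 12 libraries it was 0.99 for ranks 1 and 6, and 0.98 for rank 15 with each of them. For each of the 3, the other 2 were the most similar of all 12464 genes. The 3 were grouped by their shared division, so the high correlation over all 12 libraries follows largely from that choice. A further 19 genes outside the set, 11 higher and 8 lower in the 7 libraries, were separated along the same division, none by a gap of 0.5 or more. Over all members, the number of outside genes separated along a member's division had a median of 34 and ran from 9 to 585. The count of 19 lies below that median, so it is not read as particular to this division.

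The only other shared division was that of gap ranks 32 and 40, both low in 20% E2 replicate 1 and in 40% E2 replicates 1 and 3. These rested on few reads, 8 to 15 fragments per upper library for rank 32 and 4 to 11 for rank 40, with 0 or 1 in each lower library. Of the 903 pairs of members, 4 had the same division, 3 differed in 1 library and 23 in 2. In the opposite direction, 2 pairs were mirror images in 11 of the 12 libraries and none in all 12.

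For each member the most similar of all other genes was sought by Pearson correlation of log2(FPKM + 1) over the 12 libraries. The highest correlation had a median of 0.886 over the 43 genes (0.824 to 0.988), and 0.904 over all 12464 genes. The most similar gene was itself a member for 5 of the 43, which are the 5 with a shared division. For the other 38 it lay outside the set and differed by 0.11 to 2.27 (log2) between the libraries of the member's upper and lower level, with a median of 0.26. The difference was at least 1 for 2 of them, 2.27 for the partner of gap rank 11 and 1.32 for that of gap rank 19. The second most similar gene lay outside the set for 40 members and differed by at least 1 for 6 of them, by 2.98 at most. For ENSRNOG00000019823 the highest correlation was 0.850 and the partner gene differed by only 0.19 (log2) between the same libraries, against 4.81 for the gene itself. For ENSRNOG00000048985 it was 0.919, with a partner difference of 0.27 against 3.57. For ENSRNOG00000037607 it was 0.870, with 0.40 against 4.37. The next most similar gene to ENSRNOG00000037607, at a correlation of 0.849, differed by 1.61 and was not a member.

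Lower levels ranged from no reads to a clear signal. In 5 genes every lower library was listed at 0, in 7 some lower libraries were, and in 31 none was. The mean at the lower level was under 1 FPKM in 22 genes, had a median of 0.725 over the 43, and reached 8.00 at most. The mean at the upper level had a median of 11.4 FPKM and ran from 3.55 to 131, with 11 genes at 20 or more. In 28 genes the lower level averaged at least 3 fragments per library, and there the ratio of the level means had a median of 15.1 and ran from 5.47 to 45.0. It was at least 10 in 21 of these 28 genes and at least 20 in 8. In 10 genes the lower level held some reads but fewer than 3 per library on average, so that the ratio is uncertain. With a floor of 3 fragments in place of the lower level, the ratio ran from 1.85 to 69.2 in these 10. The lower level of gap ranks 32, 38 and 40 held only 2 fragments in all, and the 95% counting intervals of their ratios, exact from pooled fragments, were 3.71 to 115, 13.9 to 435 and 2.30 to 73.4. These intervals too are no test, since the levels were assigned from the same values.

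The depth behind these levels was uneven. The median member had 85.3 fragments per library, against 457 for the median of the 12464 genes, and 15 members had 100 or more. In 10 members the mean was under 30 fragments. Of the 5 genes with no reads at the lower level, 3 had models of 66 to 90 bases and only 2 to 12 fragments in each upper library, and their upper levels were at least 1.37- to 2.09-fold above the floor of 3 fragments, so the depth cannot show a larger step for them. With genes averaging under 30 fragments left out, 33 members of 12002 genes (0.275%) were left, and their median gap was 2.10.

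**Figure D4:**
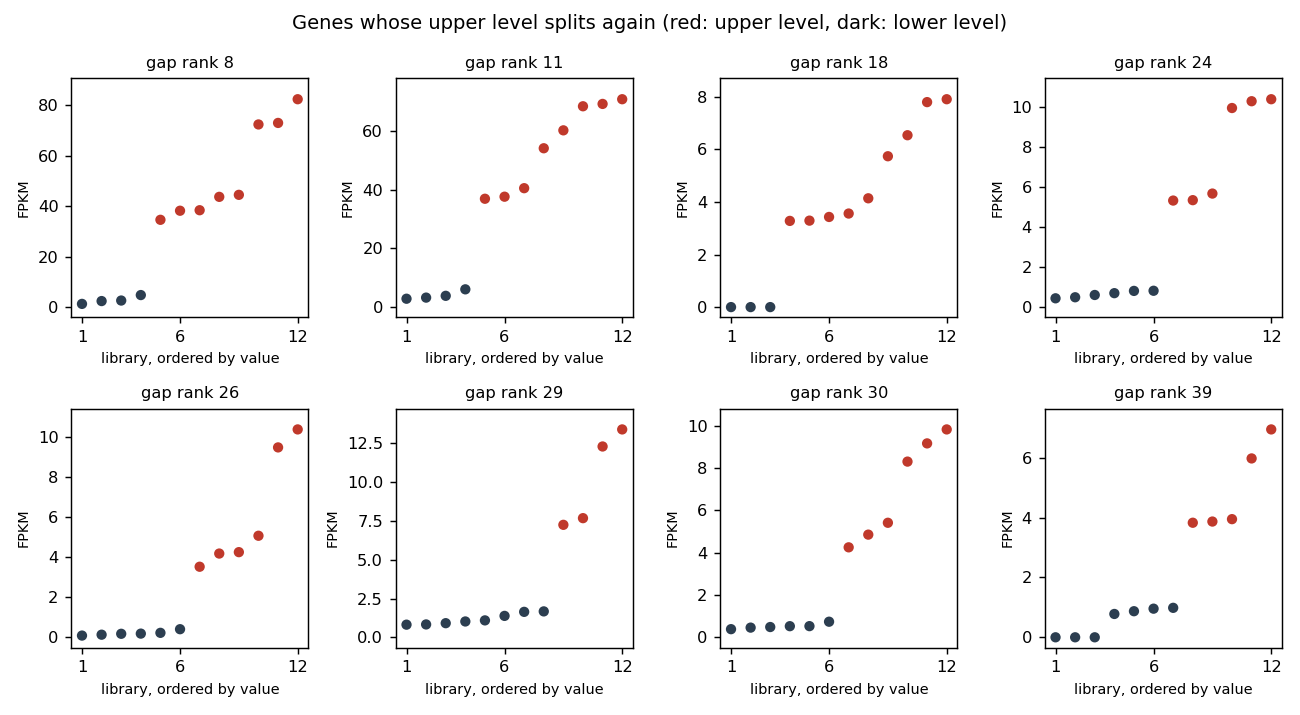
FPKM (vertical axes) of the 8 genes whose upper level divides again, with the 12 libraries ordered by value along the horizontal axes, the upper level in red and the lower level in dark blue. In gap rank 24 the red points stand at 5.33 to 5.68 and at 9.96 to 10.4 FPKM.

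In some genes the upper level itself divided again, though no more often than the highest values of other genes did. The upper level was searched for a further gap wider than the range on either side of it, on log2(FPKM) with at least 2 libraries on each side, in the 40 genes with 4 or more upper libraries. It was met by 8 genes (20.0%). The highest values of other genes, taken in the same numbers, met it in 22.6%, so the share is not above that background. The genes with gap ranks 18 and 39 are among them with only 4 to 12 and 4 to 7 fragments in each upper library, so their steps rest on a few reads. In these 8 genes the ratio of the top mean to the middle mean ran from 1.67 to 2.33 with a median of 1.88. No such ratio is given for other genes, so it is not read as particular to the members. This measure and ENSRNOG00000046379 (gap rank 24) were chosen after the values were seen. ENSRNOG00000046379 read 0.440 to 0.817 FPKM in 6 libraries, 5.33, 5.35 and 5.68 in 40% E2 replicate 3, vehicle replicate 3 and 5% E2 replicate 2, and 9.96, 10.3 and 10.4 in 20% E2 replicate 2, vehicle replicate 2 and 20% E2 replicate 1. The fragments were 9 to 17 in each lower library, 86 to 110 in the middle and 166 to 168 at the top. The gene with gap rank 8 had 34.6 to 44.5 FPKM in 5 libraries and 72.4 to 82.4 in 3 others, above a lower level of at most 4.77. In that with gap rank 30 the middle 3 libraries had 4.25 to 5.41 FPKM and the top 3 had 8.30 to 9.82.

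**Figure D5:**
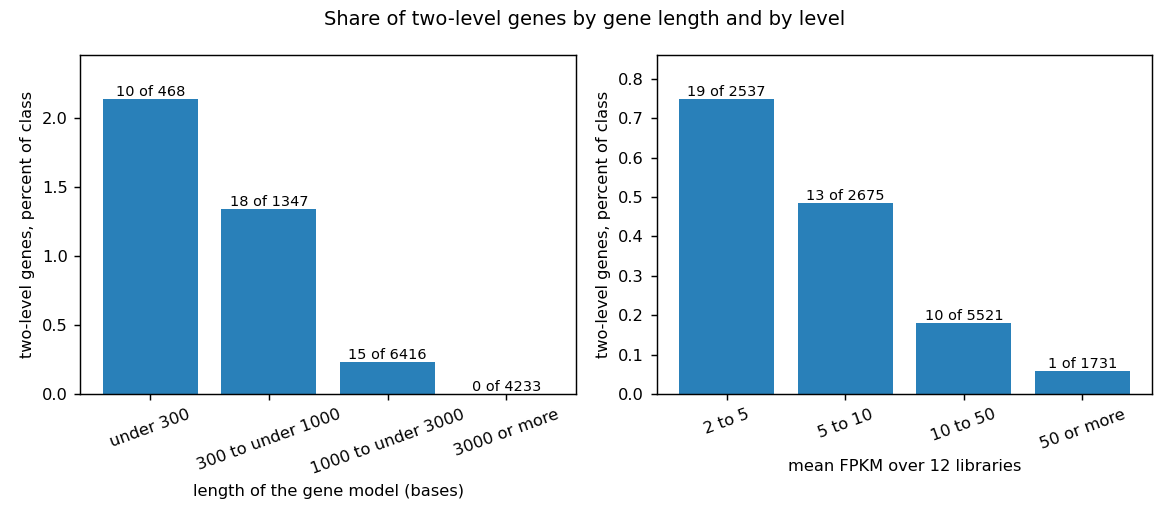
Share of genes in each class that are 2-level genes (bars, in percent, from 0), by length of the gene model in bases (left) and by mean FPKM over the 12 libraries (right), with the counts above each bar. The share falls from 2.14% of models under 300 bases to 0 of 4233 models of 3000 bases or more.

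The rule did not use gene length, and the members were short. Their recovered models had a median of 693 bases (66 to 2243), against 2263 for all 12464 genes. Of 468 genes with models under 300 bases 10 were members (2.14%), of 1347 from 300 to under 1000 bases 18 (1.34%), of 6416 from 1000 to under 3000 bases 15 (0.234%), and of the 4233 longer ones none. At the same FPKM a shorter gene has fewer fragments, which moves with length here. Among genes with a mean of at least 30 fragments over the libraries the members were still shorter, with a median of 961 bases against 2346. Of these members 54.5% had models under 1000 bases, against 11.3% of all such genes. The part that counting noise has in the remaining difference was not tested. Members were also low in level, with a median mean of 5.40 FPKM against 12.9. That mean takes in the libraries at the lower level, which pull it down. At the upper level alone the members' means had a median of 11.4 FPKM. Of the 2537 genes between 2 and 5 FPKM 19 were members (0.749%), and of the 1731 genes at 50 FPKM or more 1 was (0.0578%). The measure of log2(FPKM + 1) and the floor of 2 FPKM both enter the rule, so the share by level is partly set by it.

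Each library carried its own mixture of levels. The number of members at the upper level was 16 to 28 of 43 per library, with a median of 22.5. It was lowest in 40% E2 replicate 1 and highest in 5% E2 replicate 2. Pairs of libraries were counted by how many members stood at the same level in both. In the 12 pairs from 1 group, 15 to 26 genes were at the same level (median 20), and in the 54 pairs from different groups 14 to 34 were (median 22.5). The closest pair was 20% E2 replicate 1 and 40% E2 replicate 1, at the same level in 34 of 43 genes (79.1%), followed by vehicle replicate 2 and 5% E2 replicate 2 with 30. Vehicle replicates 1 and 2 matched in 15 genes (34.9%).

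Upper levels were somewhat more frequent in vehicle and at 5% E2. Over the 43 genes and 3 libraries of each group, 74 of 129 values (57.4%) were at the upper level in vehicle, 71 (55.0%) at 5% E2, 58 (45.0%) at 20% E2 and 60 (46.5%) at 40% E2. The condition on treatment groups removed no gene, but members of 1 library share its RNA, so these counts carry no test. All 3 vehicle libraries were at the upper level in 9 genes and all 3 at the lower level in 2.

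None of the 43 genes passed a test for the hormone groups. In limma's moderated F-test over the 4 groups, fitted to the 14781 genes that reached 1 FPKM in 3 or more libraries, 0 members had an adjusted p under 0.05 (smallest 0.964), where 0% of all genes did. At an unadjusted p under 0.05 there were 0 members, against 4.79% of all genes. A gene that has both levels inside a group has a wide spread there, so the rule works against such calls and the count is read with that. Against vehicle, 0 members passed at 5% E2 (0% of all genes), 0 at 20% E2 (0.00677%) and 0 at 40% E2 (0%), with smallest limma adjusted p of 0.889, 0.785 and 0.809. At an unadjusted p under 0.05 there were 0, 2 and 4 members (0%, 4.65% and 9.30%), against 5.49%, 6.07% and 5.87% of all genes. Between doses 0 members passed as well (0% of all genes for 20% against 5% E2 and 0.00677% for each of the other pairs), with 1, 0 and 0 at an unadjusted p under 0.05 for 20% against 5%, 40% against 5% and 40% against 20% E2 (4.48%, 4.51% and 2.90% of all genes).

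The fitted differences were large and imprecise. The standard error of a group difference had a median of 1.13 (log2) over the members and 0.13 over all genes. The median difference from vehicle, on the log2(FPKM + 1) scale, was −0.10 over the members at 5% E2, −0.46 at 20% E2 and −0.44 at 40% E2, and 0.00, 0.01 and 0.00 over all genes tested. The 3 doses share the vehicle libraries, so these values are not independent of each other. Of the 43 differences, 23, 27 and 28 were negative. The members were measured in the same libraries and some divide them alike, so they are not replicates of a dose. The number of negative differences over all genes was not taken, and no effect of dose is read from these counts.

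A single gene had 1 group wholly at the upper level and another wholly at the lower. ENSRNOG00000048561 (gap rank 19), named because it is that exception, read 19.8, 7.37 and 18.4 FPKM in vehicle, 17.1, 0.564 and 13.3 at 5% E2, 0.562, 28.7 and 0.980 at 20% E2, and 0.680, 0.662 and 0.902 at 40% E2. Upper libraries held 65 to 263 fragments and lower ones 5 to 11. All 3 vehicle libraries lay above all 3 at 40% E2, while both levels were found at 5% and 20% E2. Its difference of −3.10 ± 1.20 (SE) between 40% E2 and vehicle was the largest of any member in that comparison and did not pass (limma adjusted p = 0.828, F-test over the 4 groups adjusted p = 0.964). ENSRNOG00000047706, with all 3 libraries at the upper level at 40% E2 and 1 of 3 at 20% E2, was 3.12 ± 1.59 (SE) higher at 40% than at 20% E2, the largest difference of any member in that comparison, and did not pass (limma adjusted p = 1). At 20% E2 the smallest adjusted p was shared by gap ranks 13 and 42. Gap rank 13 read 1.75, 30.8 and 17.6 FPKM in vehicle, 1.53, 12.6 and 17.1 at 5% E2, 1.12, 1.43 and 1.16 at 20% E2, and 1.83, 1.02 and 1.39 at 40% E2. It lay −2.40 ± 0.92 (SE) from vehicle at 20% E2 and did not pass (limma adjusted p = 0.785). Gap rank 42 read 4.60, 7.08 and 4.90 FPKM in vehicle and 0.455, 1.33 and 4.01 at 20% E2, which lies −1.33 ± 0.51 (SE) from vehicle and did not pass (limma adjusted p = 0.785). Its other libraries read 6.38, 4.45 and 5.75 FPKM at 5% E2 and 1.25, 5.74 and 6.78 at 40% E2.

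These genes held much of the largest variation inside treatment groups. The pooled standard deviation within groups had a median of 1.48 (log2) over the 43 genes (0.69 to 2.52), against 0.14 over the 12464. Among the 20 genes with the largest such deviation 12 were members. Of 196 genes with a deviation above 1, 39 (19.9%) were, and the other genes that varied as widely did not meet the rule. The rule selects such genes, and these values describe the set.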

How the data were processed

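RNA of 12 libraries was used, 3 for each of 4 capsule groups. The deposited files hold FPKM computed by the authors, per the file names. HISAT2, featureCounts, DESeq2, fastp and CASAVA are listed, without versions or roles, per the submitters' processing notes. For build, annotation, strand and reads shared by near-identical genes nothing is given in the sources used here, so genes with close copies or overlapping neighbours are uncertain. A series table with the same values was not used, since its header does not line up with its columns.

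FPKM values were taken back to whole fragments and gene lengths by finding, for each library, the denominator that makes them whole. This gave whole numbers for each of the 21071 genes detected in 2 libraries or more (largest deviation 8.99e-05, tolerance 1e-04 plus 3e-07 per fragment). Lengths are the smallest that fit. Fragments and the floor of 3 cover counting error only. The rule was applied to log2(FPKM + 1), a scale that understates the change of low genes. Hormone groups were compared with limma 3.58.1 in R 4.3.3 (trend, robust, all 12 libraries, Benjamini-Hochberg adjustment, threshold 0.05). The procedures were tested on simulated data. Those for the rule held clear steps without counting noise, and those for limma held no 2-level genes. They therefore do not cover members of few fragments.

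The members and lists were chosen with earlier results of these data known. By rule, 2 genes of widest gap with the upper level in more libraries and 2 with it in fewer were named. The gene lists and cell type markers set out needed symbols and were not analysed here. Alternatives were another pseudocount, filter, gap, side or group condition, other scaling, a replicate block and leaving out each library. Filters on fragments (30) and length (200 bases) were chosen after seeing the data.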

Additional observations from a re-analysis of the deposited data

How the results depend on the processing

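The number of 2-level genes depended most on how low values were treated. It was 43, and 78 with log2(FPKM + 0.1), 68 with a mean FPKM of 1 or more, 109 with no filter on low values and 24 with a mean FPKM of 5 or more. The last of these tests fewer genes, and the looser filters that gave 68 and 109 let in more, so these counts are not shares of the same genes. With the lower pseudocount 40 of the 43 were still members. Leaving out 1 library gave 44 to 56 genes, the highest without vehicle replicate 1, with 38 to 43 of the 43 kept. In all 12 such runs 33 genes were kept. Of the 10 others, 9 had a level of only 3 libraries, which falls below the rule's minimum once 1 of them is left out. Models of 200 bases or more gave 34 genes, and rescaling by median-of-ratios size factors gave 43.

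No member passed limma for the F-test or for any dose against vehicle under the 17 alternatives to each (smallest adjusted p between 0.54 and 1, with 0 to 6 members at an unadjusted p under 0.05). The rule selects genes with a wide spread inside groups, which works against a call under each alternative. These repeats therefore cannot show that a hormone effect is absent. With the replicate number as a block, 0 members passed in each of these 4 tests, with a smallest adjusted p of 0.684, and no call changed. Correlations between libraries of different groups were taken after each gene's group mean was subtracted. They were −0.05 to 0.08 over the 18 same-numbered pairs (median 0.00), and the 36 other pairs also had a median of 0.00. In 4 of 12 libraries the highest correlation was with a library of the same number. Leaving a group with 2 libraries assumes they vary like the rest. For the level differences of the 20 genes of widest gap, whose sign the rule fixes, 40 values were tried. Of these, 17 moved by more than the pooled SD inside the levels, all with log2(FPKM + 0.1). The rule keeps that SD narrow, and it is not a spread among replicates. For genes of few fragments depth limits the smallest step that can be seen.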
